A study of Saccharomyces cerevisiae with 24 samples.

Results

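A pair of budding yeast double mutants that both lack the histone variant H2A.Z (Htz1) were compared directly: *htz1Δ swc2Δ*, which also lacks Swc2, and *htz1Δ swr1Δ*, which also lacks the ATPase Swr1. The comparison used the 6 arrays labelled with these genotypes, 3 of each, of the 24 arrays of the series, and the 5498 of 10928 probe sets that are paired with exactly 1 *S. cerevisiae* gene. Each probe set is called a gene below (5449 different genes). Both strains are haploid, of mating type a, in the BY4741 background with *his3*, *leu2*, *met15* and *ura3* deletions, and carry *htz1Δ::kanMX4* together with *swc2Δ::kanMX4* (strain BYh1s2-1B) or *swr1Δ::kanMX4* (strain BYh1s1-8D). Each of these 2 genotypes is a single strain, grown as 3 independent cultures in minimal medium to mid-log phase, so the strain and the deletion cannot be told apart. Wild type, *htz1Δ* and *htz1Δ swc5Δ* (Swc5 is a further SWR1 subunit) serve as reference points below. A later contrast with H2A.Z present uses the *swc2Δ* and *swr1Δ* single mutants, in the same BY4741 background. The *htz1Δ* strain also lacks *BAR1*, and the *htz1Δ swc5Δ* strain also carries a *lys2* deletion. The question is what losing Swc2 and losing the ATPase do differently to mRNA levels when there is no H2A.Z to be deposited.

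The SWR1 complex exchanges H2A in nucleosomes for H2A.Z. Swr1 is its ATPase and the scaffold on which the other subunits assemble. Swc2, encoded by *VPS72*, binds H2A.Z and takes part in bringing the complex to nucleosome-depleted promoters, and without it the rest of the complex can still form. A cell without Swr1 therefore has no complex, and a cell without Swc2 retains a complex without this subunit.

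The deleted genes matched the labels. *HTZ1* lay between 2.61 and 3.08 on all 6 arrays (log2 expression, RMA values as deposited), against 10.13 to 10.30 in wild type. *SWR1* read 2.23, 3.02 and 2.69 on the 3 *htz1Δ swr1Δ* arrays and 10.40, 10.19 and 9.99 on the 3 *htz1Δ swc2Δ* arrays. *VPS72* read 9.26, 9.27 and 9.28 in *htz1Δ swr1Δ* and 3.91, 4.66 and 4.22 in *htz1Δ swc2Δ*. Each deleted gene was thus low only where it is deleted, at or not far above the 3.74 that 95% of the probe sets for another yeast species on the same array do not exceed. The markers of mating type a (6 genes such as *STE2* and *MFA1*) had strain means of 11.68 to 13.05 in *htz1Δ swr1Δ* and 11.41 to 12.95 in *htz1Δ swc2Δ*, and the α-factor genes *MF(ALPHA)1* and *MF(ALPHA)2* were at 5.18 or below in both strains. Among the α list, *SAG1* stood higher, at 9.17 and 9.02. Replicate arrays correlated at 0.996 to 0.998 in *htz1Δ swr1Δ* and at 0.991 to 0.993 in *htz1Δ swc2Δ* across genes, with a median SD between cultures of 0.068 and 0.109. The 5 strains of the fit share one deposited level, with array medians of 9.71 to 9.77.

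The 2 strains differed in many genes and mostly by little. By limma, with 3 cultures of each strain and p adjusted over all genes tested, 764 genes passed at 0.05 and were higher in *htz1Δ swc2Δ* (13.9% of those tested) and 486 were lower (8.84%), 1250 in all (22.7%), and 2050 passed at an unadjusted p under 0.05. The median size of the difference was 0.36 (log2) among the called genes and 0.15 among all genes, and the smallest difference called was 0.15. Above 1.5-fold there were 111 genes higher (2.02%) and 109 lower (1.98%), and above 2-fold 19 higher (0.346%) and 18 lower (0.327%), with the deleted *SWR1* and *VPS72* among them. The arrays of the 2 strains did not overlap in 1229 of the 1250 called genes, and in 2327 of all genes (42.3%). The counts depended on single cultures: without *htz1Δ swr1Δ* replicate 2 there were 491 higher and 314 lower genes, without its replicate 3 there were 480 higher, and without *htz1Δ swc2Δ* replicate 2 or 3 the genes over 2-fold lower rose to 33 and 30.

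**Figure D1:**
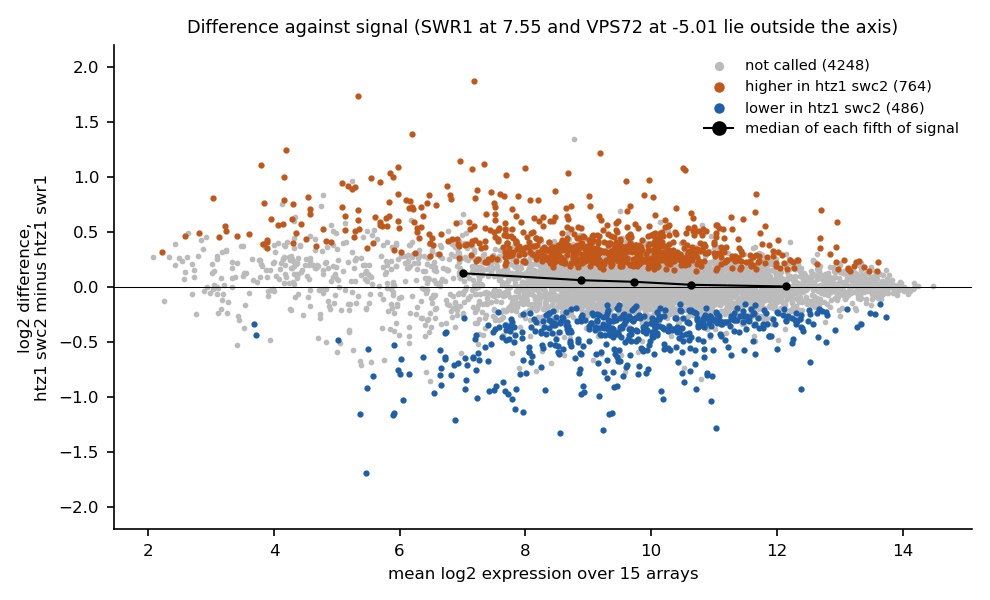
Log2 difference between the 2 double mutants (*htz1Δ swc2Δ* minus *htz1Δ swr1Δ*, vertical axis) against the mean log2 expression over the 15 arrays of the fit, 1 point per gene. Orange points (764) are higher and blue points (486) lower in *htz1Δ swc2Δ* at an adjusted p under 0.05, and the black line, which joins the medians of 5 equal bins of signal, falls from 0.13 at the dim end to 0.01 at the bright end.

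The excess of higher over lower calls moved with signal, with gene length and with scaling. In the dimmest of 5 equal bins of mean signal the median difference was 0.13, with 224 of 1100 genes higher (20.4%) and 97 lower (8.82%), while in the brightest bin it was 0.01, with 73 of 1098 higher (6.65%) and 85 lower (7.74%). In the bin of shortest gene length (51 to 657 bp) 16.8% were higher and 5.8% lower, and in the longest (2100 to 14733 bp) 9.2% were higher and 11.9% lower. The dim genes lay low on all 3 *htz1Δ swr1Δ* arrays, at medians of -0.15 to -0.07 relative to each gene's mean over the 15 arrays, against -0.03 to 0.03 on the *htz1Δ swc2Δ* arrays. Of all calls 61.1% were in the higher direction on the deposited values, 55.2% after median centring and 50.5% after quantile normalization. With the trend of each array against signal removed the share was 46.6%, and with its trend against length removed 49.1%. No gene called in one direction on the deposited values was called in the other under any of these settings. The part of signal and length in the differences was not tested.

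Of the 2 double mutants, *htz1Δ swr1Δ* was the one that lay apart from *htz1Δ swc5Δ*. Between *htz1Δ swr1Δ* and *htz1Δ swc5Δ*, 476 genes were higher (8.66%) and 678 lower (12.3%) in *htz1Δ swr1Δ*. *htz1Δ swc2Δ* and *htz1Δ swc5Δ* differed in 7 genes, 4 higher (0.0728%) and 3 lower (0.0546%) in *htz1Δ swc2Δ*. These 7 are *SWC5* and *VPS72*, each deleted in 1 of the 2 strains, *LYS2*, deleted in the *htz1Δ swc5Δ* strain, and *VPS60*, *MET16*, *DCP1* and *ASP3-1*. The comparisons share arrays with each other, so their counts are not independent. For the 764 genes higher in *htz1Δ swc2Δ* than in *htz1Δ swr1Δ*, the median difference from *htz1Δ swc5Δ* was 0.06 for *htz1Δ swc2Δ* and -0.30 for *htz1Δ swr1Δ*, and for the 486 lower genes -0.06 and 0.33. Against *htz1Δ* itself, 1116 of all genes were higher (20.3%) and 989 lower (18%) in *htz1Δ swc2Δ*, and 1000 higher (18.2%) and 1268 lower (23.1%) in *htz1Δ swr1Δ*. Against wild type the counts were 897 (16.3%) and 1004 (18.3%) for *htz1Δ swc2Δ* and 658 (12%) and 1085 (19.7%) for *htz1Δ swr1Δ*. Relative to *htz1Δ*, the genes that separate the double mutants lay on both sides, with medians of 0.14 for *htz1Δ swc2Δ* and -0.23 for *htz1Δ swr1Δ* among the higher genes and of -0.14 and 0.23 among the lower ones. Among all genes, the 3 *htz1Δ swr1Δ* arrays lay above all 12 other arrays of the fit in 151 genes and below them all in 281, while the 3 *htz1Δ swc2Δ* arrays did so in 43 and 17.

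The genes with the largest excess in *htz1Δ swc2Δ*, apart from the deleted *SWR1*, include several that are low in vegetative cells. *RRT5* read 7.09, 5.40 and 5.99 in *htz1Δ swr1Δ* and 8.37, 7.80 and 7.94 in *htz1Δ swc2Δ*, a difference of 1.87 (log2, standard error 0.43, adjusted p = 0.0083). *SPO19*, a gene of the prospore membrane made in meiosis, read 5.07, 3.91 and 4.19 against 6.70, 5.92 and 5.78 (1.74, standard error 0.41, adjusted p = 0.0090). In both genes the arrays do not overlap, and *htz1Δ swr1Δ* replicate 1 lies nearer to the lowest *htz1Δ swc2Δ* array than to the other replicates of its strain. The same replicate was the highest of its strain for the ubiquitin-conjugating enzyme gene *UBC11* (6.82, 5.83 and 6.24 against 7.61, 7.37 and 7.33). *CSN9*, a subunit of the COP9 signalosome, differed by less but more evenly, with 6.75, 6.50 and 6.36 in *htz1Δ swr1Δ* and 7.55, 7.50 and 7.80 in *htz1Δ swc2Δ* (1.08, standard error 0.13, adjusted p = 2.5e-04). Its 3 *htz1Δ swc2Δ* arrays lay above all other 12.

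Genes for membrane transporters and for stress proteins were found among the 12 as well, while their lists as a whole had no more higher genes than the 13.9% of all genes (1 of 21 probe sets for hexose transporters, 2 of 29 for drug and metal transport, 4 of 35 for general stress). *TPO3*, a polyamine exporter, read 5.52, 5.14 and 5.26 in *htz1Δ swr1Δ* and 6.74, 5.96 and 6.50 in *htz1Δ swc2Δ* (1.09, standard error 0.26, adjusted p = 0.010). *HXT11*, of the hexose transporter family, read 2.89, 2.81 and 3.09 against 3.94, 3.80 and 4.38 (adjusted p = 0.0042). Its *htz1Δ swr1Δ* arrays all lie below the 3.74 of other-species probe sets, so the difference has only a bound, at least 1.23-fold higher in *htz1Δ swc2Δ*. *NQM1*, a transaldolase, was higher by 1.23 and *GRE1*, a hydrophilin induced by osmotic stress, by 1.08, with *GRE1* at 9.39, 8.45 and 8.20 in *htz1Δ swc2Δ*, well apart from each other. With only the 6 arrays in the fit *GRE1* did not pass (adjusted p = 0.054). *DAD4*, a subunit of the DASH complex at the kinetochore, read 10.62, 9.87 and 9.95 against 11.15, 11.16 and 11.40 (1.09, standard error 0.31, adjusted p = 0.023), and did not pass without *htz1Δ swr1Δ* replicate 2 or 3 or *htz1Δ swc2Δ* replicate 3 (adjusted p = 0.088, 0.080 and 0.065). The other genes of the 12 with the largest excess are *YIG1* (1.12), whose product binds a glycerol phosphatase, and *YER188C-A* (1.39) and *YBR298C-A*, which have only a systematic name. *YBR298C-A* was also below 3.74 on all *htz1Δ swr1Δ* arrays (3.69, 3.31 and 3.34) and was at least 1.94-fold higher in *htz1Δ swc2Δ* (4.90, 4.59 and 4.59), by the same bound. Of the 18 genes over 2-fold higher, the *htz1Δ swr1Δ* arrays lay below all others in 4, *YER188C-A* and *HXT11* among them, and the *htz1Δ swc2Δ* arrays above all others in 1, *CSN9*. Among all 764 higher genes they did so in 229 and 36.

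**Figure D2:**
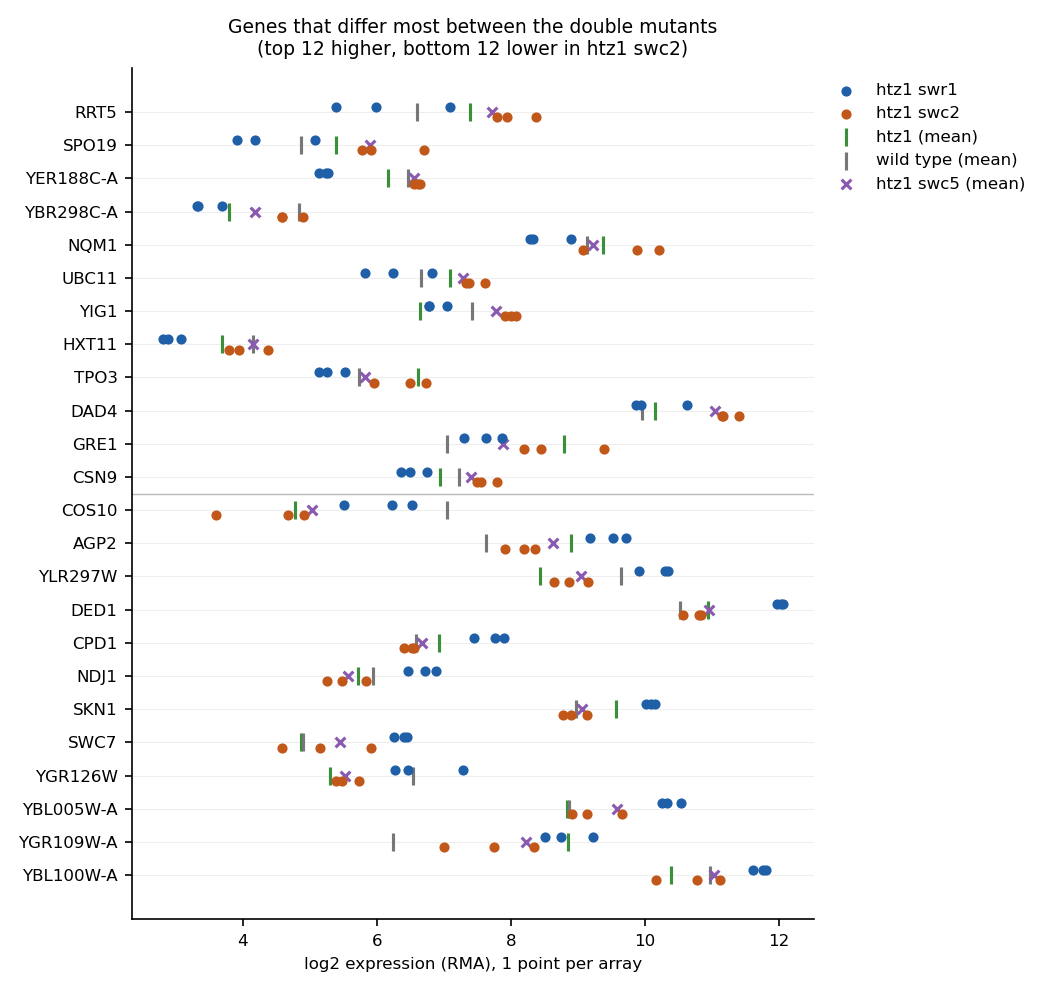
Log2 expression (horizontal axis) of the 12 genes with the largest excess in *htz1Δ swc2Δ* (top) and the 12 with the largest deficit (bottom), among called genes whose arrays do not overlap and without the deleted genes, 1 blue point per *htz1Δ swr1Δ* array and 1 orange point per *htz1Δ swc2Δ* array, with the strain means of *htz1Δ*, wild type and *htz1Δ swc5Δ* as bars and crosses. The *htz1Δ swc5Δ* mean is nearer to the *htz1Δ swc2Δ* mean in 22 of the 24 genes, and for *DED1*, *SKN1* and *AGP2* the blue points stand above everything else.

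Among the genes with the largest deficit in *htz1Δ swc2Δ*, it was usually *htz1Δ swr1Δ* that stood apart from every other strain. *DED1*, an essential RNA helicase of translation initiation, read 12.05, 11.97 and 12.02 in *htz1Δ swr1Δ* and 10.56, 10.84 and 10.80 in *htz1Δ swc2Δ*, a difference of -1.28 (standard error 0.09, adjusted p = 4.0e-06), with means of 10.52 in wild type, 10.94 in *htz1Δ* and 10.95 in *htz1Δ swc5Δ*. It was thus 2.43-fold higher in *htz1Δ swr1Δ* than in *htz1Δ swc2Δ*. *SKN1*, a gene of cell wall β-glucan synthesis, read 10.15, 10.08 and 10.02 against 8.78, 8.89 and 9.13 (-1.15, standard error 0.13, adjusted p = 1.8e-04). *AGP2*, a plasma membrane regulator of polyamine and carnitine uptake, read 9.72, 9.53 and 9.18 against 7.91, 8.19 and 8.36 (-1.32, standard error 0.16, adjusted p = 2.5e-04), with a wild-type mean of 7.62 below both. In all 3 genes the *htz1Δ swr1Δ* arrays lay above the 12 others.

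*CPD1*, a cyclic phosphodiesterase of tRNA splicing products, was lower by 1.21 on the log2 scale in *htz1Δ swc2Δ* and *NDJ1*, a telomere protein of meiosis, by 1.16, again with the *htz1Δ swr1Δ* arrays above all others. *COS10*, of a membrane protein family encoded near telomeres, had the largest difference of the group (-1.69, standard error 0.32, adjusted p = 0.0027) and the widest spread, at 5.51, 6.23 and 6.52 against 4.91, 4.68 and 3.60. In *COS10* neither strain lay outside the range of the others, since the wild-type mean was 7.05 and that of *htz1Δ* 4.77. *YLR297W* (-1.30), *YGR126W* (-1.14), *YBL005W-A* (-1.14), *YGR109W-A* (-1.13) and *YBL100W-A* (-1.03) complete the list, with *SWC7* (-1.15), which is described below. The probe sets of *YBL005W-A*, *YGR109W-A* and *YBL100W-A*, whose names end in _s_at, may also read related sequences. With only the 6 arrays *YGR109W-A* did not pass (adjusted p = 0.063). Of the 17 genes over 2-fold lower, the *htz1Δ swr1Δ* arrays lay above all others in 10, and the *htz1Δ swc2Δ* arrays below all others in 0. Among all 486 lower genes they did so in 131 and 12. The named genes were picked for arrays that do not overlap, so *htz1Δ swr1Δ* lay above *htz1Δ swc2Δ* in them by choice.

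The subunits of SWR1 itself differed in both directions. Of a list of 15 genes, the 14 subunits and *TAF14*, 7 were higher in *htz1Δ swc2Δ* (46.7%) and 2 lower (13.3%), the deleted *SWR1* and *VPS72* being 1 of each, with a median of 0.13 against 0.04 over all genes. *SWC7*, a small subunit, was lower in *htz1Δ swc2Δ*, with 6.45, 6.26 and 6.40 in *htz1Δ swr1Δ* and 4.59, 5.91 and 5.16 in *htz1Δ swc2Δ* (-1.15, standard error 0.24, adjusted p = 0.0056). It lay above all 12 other arrays in *htz1Δ swr1Δ*, and the means of *htz1Δ* and wild type were 4.88 and 4.90. *SWC5* was higher by 0.44 (7.59, 7.64 and 7.76 against 8.03, 8.18 and 8.09, adjusted p = 0.018) and *SWC3* by 0.34 (adjusted p = 0.0099). *VPS71*, *YAF9*, *SWC4* and *BDF1*, the bromodomain subunit that reads acetylated histones, were higher by 0.19 to 0.26. *ARP6*, *RVB1*, *RVB2*, *ARP4*, *ACT1* and *TAF14* did not pass, with differences of -0.07 to 0.13. Without *htz1Δ swr1Δ* replicate 1 or 3 the count higher was 3.

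Complexes that share subunits or targets with SWR1 showed single genes in both directions. Of all genes 13.9% were higher and 8.84% lower. The same shares were 44.4% and 11.1% in NuA4, and 30.8% and 7.69% in SAGA. In INO80 they were 20% and 10%, and for histone chaperones 20% and 0%. NuA4, the acetyltransferase of H4 and H2A.Z, had 4 of 9 genes higher and 1 lower: *EAF7* (8.494, 8.583 and 8.353 against 8.999, 8.877 and 8.996) differed by 0.48 and *EPL1* by 0.38, while its scaffold *EAF1* (8.75, 8.78 and 8.72 against 8.28, 8.26 and 8.17) differed by -0.52 (adjusted p = 2.3e-04). In SAGA, the acetyltransferase and deubiquitinase of promoters, 4 of 13 were higher and 1 lower. *SUS1*, of its deubiquitinase module, read 8.213, 8.017 and 8.004 against 8.762, 8.638 and 9.001 (0.72, adjusted p = 0.0012), and *ADA2*, the partner of the Gcn5 acetyltransferase, 9.41, 9.28 and 9.16 against 8.44, 8.68 and 8.38 (-0.78, standard error 0.21, adjusted p = 0.019). *ADA2* was above its wild-type mean of 5.50 in both strains, and did not pass in 4 of 16 alternative settings (highest adjusted p = 0.063). Of 10 INO80 genes 2 were higher (*IES2* by 0.52 and *IES6* by 0.31) and 1 lower (*ARP8* by 0.28 on the log2 scale). Of 20 probe sets for histone chaperones 4 were higher and 0 lower, led by *CHZ1*, the chaperone of H2A.Z and H2B (10.80, 10.67 and 10.60 against 11.21, 11.19 and 11.36), which differed by 0.56 (adjusted p = 0.0014), and by *ASF1* (0.46). None of 11 probe sets for histones passed.

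**Figure D3:**
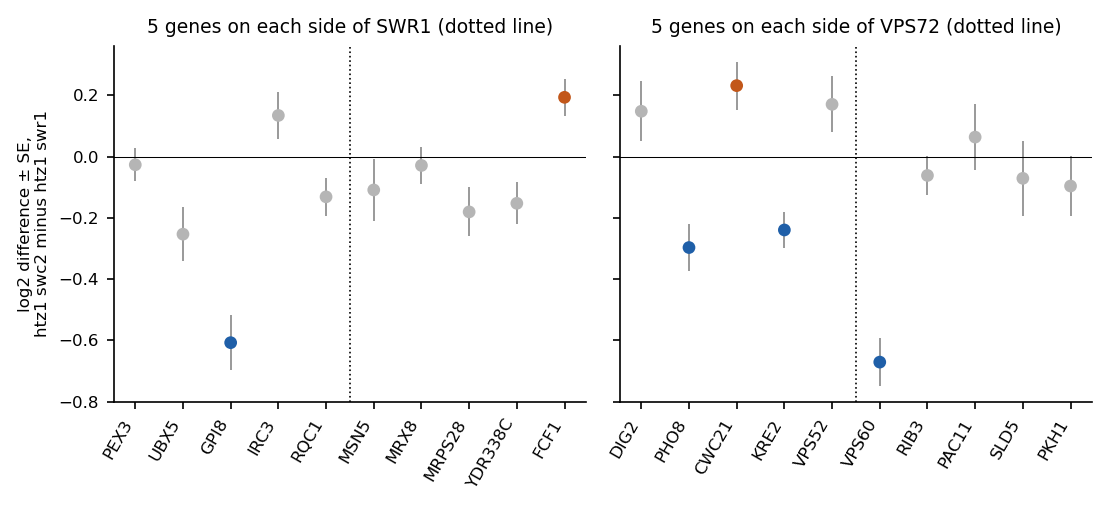
Log2 difference with its standard error (vertical axis) for the 5 genes on each side of *SWR1* (left) and of *VPS72* (right), in chromosomal order with the deleted gene at the dotted line. Blue points are lower and orange points higher in *htz1Δ swc2Δ* at an adjusted p under 0.05, and *VPS60* next to *VPS72* (-0.67) and *GPI8* near *SWR1* (-0.61) differ most.

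Genes beside the 2 deletions were examined separately, because the marker replaces the coding sequence there. Of the 10 nearest genes to *VPS72*, *VPS60*, the adjacent gene and a subunit of endosomal sorting, read 9.55, 9.70 and 9.57 in *htz1Δ swr1Δ* and 8.82, 8.94 and 9.04 in *htz1Δ swc2Δ* (-0.67, standard error 0.08, adjusted p = 1.8e-04), below all 12 other arrays. *PHO8* (-0.30) and *KRE2* (-0.24) were also lower and *CWC21* (0.23) higher. Of the 10 nearest genes to *SWR1*, the 2 directly adjacent, *RQC1* and *MSN5*, did not pass (-0.13 and -0.11). *GPI8*, 3 genes from *SWR1* and the transamidase of GPI anchors, read 10.47, 10.50 and 10.52 in *htz1Δ swr1Δ* and 9.86, 9.87 and 9.94 in *htz1Δ swc2Δ* (-0.61, standard error 0.09, adjusted p = 8.1e-04), and *FCF1*, 5 genes away on the other side, was higher in *htz1Δ swc2Δ* (0.19). So 4 of 10 and 2 of 10 neighbours passed, against 22.7% of all genes, and the part of the marker was not tested.

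Of 42 lists of genes, 18 are described here, chosen after their values were seen, and list counts are read against the 13.9% of all genes that were higher and the 8.84% that were lower. Meiosis and sporulation genes, which are off or nearly off in dividing haploid cells, had the highest median of the 18 lists (0.35): 15 of 34 were higher in *htz1Δ swc2Δ* (44.1%) and 0 lower. *NDJ1*, which was lower in *htz1Δ swc2Δ*, is a gene of meiosis that the list does not hold. *IME4*, the mRNA methyltransferase that promotes meiosis, read 4.52, 4.55 and 4.55 in *htz1Δ swr1Δ* and 5.47, 5.85 and 5.15 in *htz1Δ swc2Δ* (0.95, standard error 0.18, adjusted p = 0.0031). The septin *SPR3* was higher by 0.92 and the sporulation kinase *SPS1* by 0.85. The per-array medians of the list, relative to each gene's mean, were -0.25, -0.27 and -0.32 in *htz1Δ swr1Δ* and 0.12, 0.09 and 0.01 in *htz1Δ swc2Δ*, without overlap. Against wild type the list's medians were -0.45 in *htz1Δ swr1Δ* and -0.08 in *htz1Δ swc2Δ*, and against *htz1Δ* they were -0.16 and 0.22. The regulators *IME1*, *IME2* and *NDT80* did not pass (0.10, 0.29 and 0.25). All 34 genes are among the dimmest 25% of the genes tested, with a median level of 5.23. In the dimmest of the 5 equal bins of signal, 20.4% of all genes were higher, with a median difference of 0.13. After quantile normalization, and with the signal trend removed, 7 were higher (medians of 0.22 and 0.20), and leaving out 1 array gave 7 to 12.

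The lists of vitamin, cell wall and COS genes had medians of smaller size. Of 22 genes for thiamine, biotin and vitamin B6, 8 were higher (36.4%) and 0 lower (median 0.22), among them *BIO5*, a carrier of biotin precursors (0.53), *SNZ3* of vitamin B6 synthesis (0.47) and the thiamine regulator *THI2* (0.45). The count was 2 after quantile normalization or removal of the signal trend, and *THI2* did not pass in 11 and *BIO5* in 6 of 16 alternative settings. Of 21 probe sets for PAU, DAN, TIR and related cell wall genes 4 were higher and 1 lower (median 0.11), led by the flocculin *FLO1*, at 4.83, 4.66 and 4.67 in *htz1Δ swr1Δ* and 5.89, 5.87 and 5.39 in *htz1Δ swc2Δ* (1.00, standard error 0.15, adjusted p = 9.2e-04), and by *PAU2* (0.73). Of the 9 COS genes 0 were higher and 4 lower (44.4%, median -0.21), with *COS111* at 6.42, 6.44 and 6.35 against 5.79, 5.42 and 6.03 (-0.66, adjusted p = 0.0048) and *COS9* (-0.31) beside *COS10*. Without the dimmest 25% of genes 2 of the 6 COS genes left were lower, with a median of -0.03. *COS8* did not pass (0.21, adjusted p = 0.52). PAU and COS genes have close relatives, and their probe sets may read more than 1 of them.

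Lists in which *htz1Δ swc2Δ* lay lower were few. Of a list of 19 genes for inositol and phospholipids 0 were higher and 4 lower (21.1%, median -0.31). These were the choline transporter *HNM1* (-0.47), the choline kinase *CKI1* (-0.47), the phosphatidylinositol synthase *PIS1* (-0.26) and *OPT1* (-0.44). *OPT1*, an oligopeptide transporter, is on the list without being a gene of this pathway. *INO1*, the most regulated gene of the pathway, varied so widely between cultures of *htz1Δ swc2Δ* (11.49, 8.17 and 9.58, against 10.86, 10.05 and 10.54) that its difference of -0.73 had a standard error of 0.80. Without *htz1Δ swr1Δ* replicate 1 no gene of the list passed. Of 18 phosphate starvation genes 3 were lower and 0 higher (median -0.07), the phosphatase *PHO8* beside *VPS72* and the transcription factors of the pathway, *PHO4* (10.56, 10.47 and 10.58 against 10.01, 10.33 and 10.21, or -0.36) and *PHO2* (-0.32), whereas their target *PHO84*, the phosphate transporter, did not pass (-0.77, standard error 0.63). Of 29 probe sets for drug and metal transport 5 were lower and 2 higher. The polyamine exporter *TPO4* (-0.72) lay opposite to its relative *TPO3* (1.09), and *PDR15* (-0.84, adjusted p = 0.054) did not pass. Without *htz1Δ swc2Δ* replicate 3 the list had 10 lower.

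**Figure D4:**
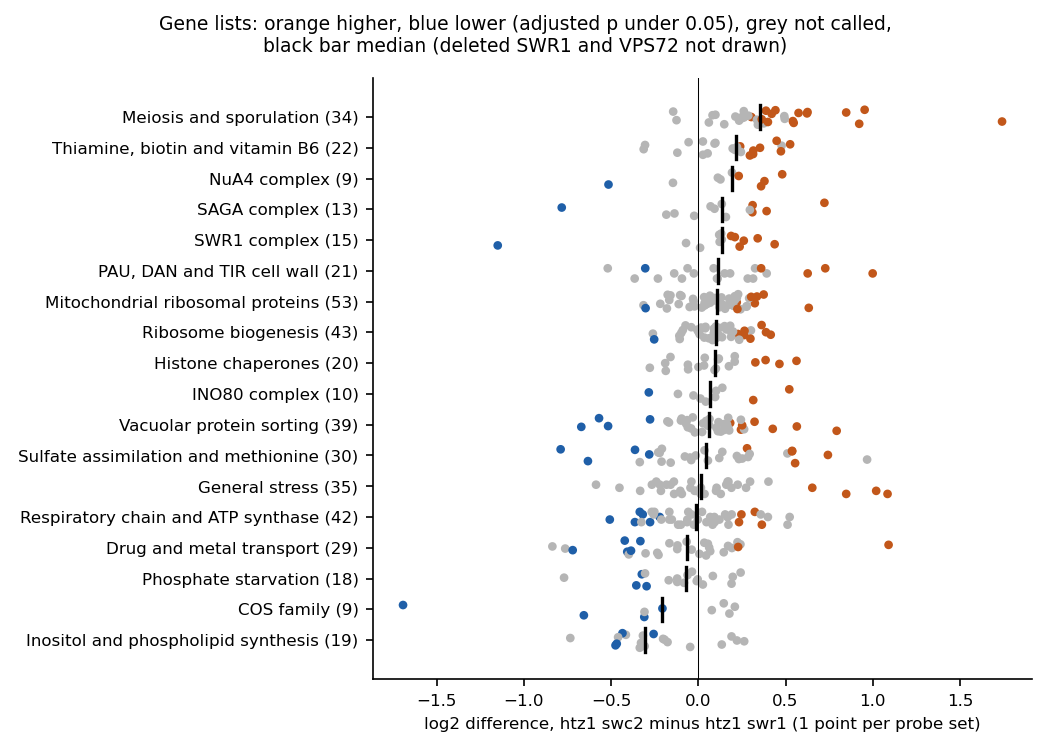
Log2 difference (horizontal axis, *htz1Δ swc2Δ* minus *htz1Δ swr1Δ*) of each probe set in 18 gene lists, with the number of probe sets in brackets. Orange points are higher and blue points lower at an adjusted p under 0.05, and black bars mark list medians, which run from -0.31 for inositol and phospholipid genes to 0.35 for meiosis and sporulation genes.

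The 6 other lists described had medians of -0.01 to 0.11 and differed in single members. Of 53 mitochondrial ribosomal protein genes 7 were higher and 1 lower, with *MRPS16* (10.24, 10.06 and 10.11 against 10.58, 10.65 and 11.07) differing by 0.63 (adjusted p = 0.0013), and without *htz1Δ swc2Δ* replicate 3 the list had 2 higher and 7 lower. Of 43 ribosome biogenesis genes 7 were higher and 1 lower, such as *UTP4* (0.41) and *MAK16* (0.39) of the early pre-rRNA particles. Of 42 respiratory chain and ATP synthase genes 4 were higher and 6 lower, with *NDI1*, the NADH dehydrogenase of the inner mitochondrial membrane, at -0.51. *CYC7* (0.52) and *NDE2* (0.51) of the same list did not pass (adjusted p = 0.174 and 0.095). Vacuolar protein sorting genes had 7 of 39 higher and 4 lower. *VPS41* (7.69, 7.44 and 7.29 against 8.38, 8.21 and 8.21) differed by 0.79 and *VPS4* by 0.56 (adjusted p = 4.9e-04 and 1.0e-04), and in both the *htz1Δ swr1Δ* arrays lay below all others. *VPS68* (11.75, 11.70 and 11.64 against 11.01, 11.21 and 11.17) differed by -0.57 (adjusted p = 1.8e-04). In sulfate assimilation and methionine synthesis 5 of 30 were higher and 4 lower: *MET16*, the PAPS reductase, by 0.74 (adjusted p = 9.5e-04), against *MET13*, a methylenetetrahydrofolate reductase, at -0.79 (adjusted p = 0.0027). The largest difference of that list, in *SUL1* (0.97, adjusted p = 0.125), did not pass. Of 35 general stress genes 4 were higher, *GRE1*, *SIP18* (0.85), *ALD3* (1.02) and *ALD2* (0.65), and 0 lower. *ALD3* did not pass in 11 of 16 alternative settings. Of the other list members named, *HNM1* did not pass in 7 of 17, *IES6* in 5 of 17, *ASF1* and *TPO4* in 4 of 17, *SWC5* in 4 of 16, *UTP4* in 3 of 17 and *SPS1* in 3 of 16. *CKI1*, *NDI1*, *SNZ3* and *ALD2* did not pass in 2 of 17, and *SPR3* in 1 of 16.

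The 24 other lists held 484 probe sets, of which 28 were higher and 16 lower, both smaller shares than the 13.9% and 8.84% of all genes. The described lists held 459, of which 84 were higher and 38 lower. The medians of the 24 other lists ran from -0.22 to 0.21. In 9 of these 24 lists no gene passed, among them those for arginine synthesis (8 genes, median 0.10), lysine synthesis (10, 0.01), heat shock and chaperones (26 probe sets, 0.03), trehalose and glycogen (20, -0.10), and purine synthesis (20, 0.08). Cytosolic ribosomal proteins had 1 of 59 probe sets higher and 1 lower (median 0.00).

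The medians of the 16 chromosomes lay between 0.02 (V) and 0.09 (VI), against 0.04 for all genes, and their shares of higher genes between 10.4 and 15.6%. Near the chromosome ends, 12.1% of 390 measured genes (up to 15 per arm) were higher and 11.3% lower (median 0.04), against 14% and 8.64% of 5105 other genes (median 0.04). Above a signal of 8, 32 of 198 outermost genes were lower (16.2%) and 17 higher (8.59%), against 8.59% and 12.8% of the 4379 others. No test was made of this difference.

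The same subunit contrast can be made with H2A.Z present, between *swc2Δ* and *swr1Δ*, on 6 arrays that the double mutants do not share. These arrays were deposited at other levels (medians of 10.06 to 10.10 and of 9.29 to 9.30) and were given, rank for rank, the mean distribution of the 15 arrays above, so array processing and mutation cannot be told apart in them. The labels give the 3 *swr1Δ* cultures different strain names, and they were taken as 1 genotype. At an adjusted p under 0.05, 626 genes were higher (11.4%) and 586 lower (10.7%) in *swc2Δ*. Across genes, the differences in the 2 contrasts correlated at 0.76 (Pearson, leaving out the 3 deleted genes), given as a description since genes are not replicates. Of the 763 genes higher in *htz1Δ swc2Δ*, 722 were also above 0 in the single mutants (94.6%) and 375 passed there in the same direction (49.1%), and 2 passed in the opposite one. Of the 485 lower genes 466 were below 0 (96.1%), 276 passed (56.9%) and 0 passed in the opposite direction. Over all genes 75% had the same sign in both contrasts. Lists could still differ between the contrasts. Of the 42 respiratory chain and ATP synthase genes, 3 were higher and 20 lower in *swc2Δ* (median -0.23). Without H2A.Z they had 4 higher and 6 lower (median -0.01). For meiosis and sporulation genes the medians were 0.25 with and 0.35 without H2A.Z. The difference between contrasts was not tested for lists.

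**Figure D5:**
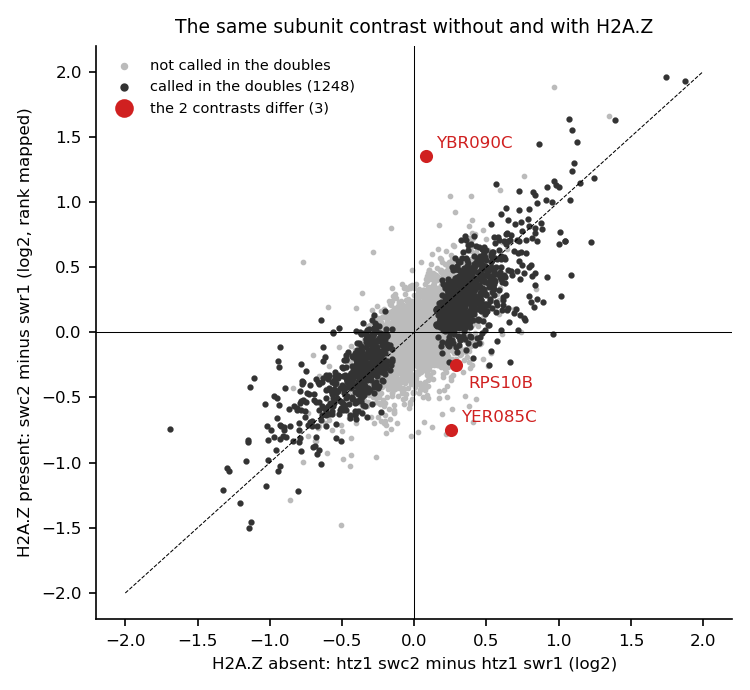
Log2 difference between losing Swc2 and losing Swr1 without H2A.Z (horizontal axis, *htz1Δ swc2Δ* minus *htz1Δ swr1Δ*) and with H2A.Z (vertical axis, *swc2Δ* minus *swr1Δ* after rank mapping), 1 point per gene, without the deleted genes. The 1248 genes called in the double mutants (dark) mostly have the same sign in both contrasts, with medians nearer to 0 with H2A.Z than the dashed line of equal differences. They were picked by the contrast without H2A.Z, so the smaller medians cannot be read as an effect of H2A.Z. Their medians were 0.34 without and 0.26 with H2A.Z among the higher genes, and -0.38 and -0.32 among the lower ones. Red points mark the 3 genes whose 2 differences differed from each other.

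All 18 genes over 2-fold higher in *htz1Δ swc2Δ* were above 0 in the single mutants and 15 passed, and all 17 lower genes were below 0 and 13 passed. *RRT5* differed by 1.87 without H2A.Z and by 1.93 with it, *SPO19* by 1.74 and 1.96, *DED1* by -1.28 and -1.07, *AGP2* by -1.32 and -1.21, and *SWC7* by -1.15 and -0.83. *GPI8* (-0.61 and -0.50) and *VPS60* (-0.67 and -0.93), the genes near the deletions, did so as well. The 7 that did not pass in the single mutants are *NQM1* (1.23 and 0.69), *GRE1* (1.08 and 0.44) and *ALD3* (1.02 and 0.28) among the higher genes and *COS10* (-1.69 and -0.74), *YBL005W-A* (-1.14 and -0.42), *AIF1* (-1.11 and -0.35) and *ECM13* (-1.01 and -0.98) among the lower ones. The difference between the 2 contrasts did not pass in any of them (adjusted p = 0.34 for *YBL005W-A* and higher for the rest).

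Whether the contrast depends on H2A.Z was tested as the difference of the 2 differences. It passed in 3 genes (0.0546%), with 474 at an unadjusted p under 0.05, in 7 with the replicate number as a block and in 105 when the 24 arrays were median centred instead of mapped by rank, so this count rests on the scaling. Its median standard error over all genes was 0.14, which bounds what could be called. *YBR090C* differed by 0.08 without H2A.Z and by 1.35 with it (difference of differences -1.27, standard error 0.14, adjusted p = 9.1e-05). It read 4.78 to 4.98 in *htz1Δ swr1Δ* and 4.84 to 5.09 in *htz1Δ swc2Δ*, 5.12 to 5.14 in *swc2Δ* and 3.58 to 3.88 in *swr1Δ* (the last 2 after rank mapping), so *swr1Δ* was the low strain of the 4. *YER085C* differed by 0.25 and -0.75 (1.00, standard error 0.14, adjusted p = 0.0040), at 4.04 to 4.42 in the double mutants, 4.48 to 4.66 in *swr1Δ* and 3.65 to 3.86 in *swc2Δ*. One of the 2 probe sets for *RPS10B*, a ribosomal protein gene with a near-identical copy, differed by 0.29 and -0.25 (0.54, standard error 0.09, adjusted p = 0.020), and the other by 0.23 and -0.26 (0.49, standard error 0.14) without passing.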

How the data were processed

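The authors hybridised RNA from 3 cultures of each strain to Affymetrix Yeast Genome 2.0 arrays, 1 per culture, read them with GCOS and normalized them by RMA, and deposited log2 expression values. Which arrays were normalized together is not given in the sources used here. These log2 values were tested with limma 3.58.1 (R 4.3.3), 1 mean per strain over the 15 arrays of 5 strains (10 residual degrees of freedom, prior 3.05), with Benjamini-Hochberg adjustment over 5498 probe sets and no filter. The contrast with H2A.Z present used all 24 arrays, 9 of them mapped by rank. Gene names and order came from RefSeq (R64). Named are the deleted genes, up to 12 genes per direction with the largest differences among called genes whose arrays do not overlap, and some of the 4 members per list with the largest differences. Members of that kind that did not pass and are not named above include *RSB1* (-0.76), *PAU4* (-0.52), *INO2* (-0.46) and *THI4* (0.48). Other genes were named after their values were seen. The members and lists were chosen with earlier results of these data known. Alternatives covered scaling, filtering, the arrays in the fit and leaving out 1 array. The number of arrays limits the precision. A planned motif count in promoters was not run, as no promoter sequences were used here.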

Additional observations from a re-analysis of the deposited data

Results flagged for a closer look

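In 3 genes the contrast between losing Swc2 and losing Swr1 differed by whether H2A.Z was present, by limma's test of the difference of the 2 differences after rank mapping. The values are -1.27 in *YBR090C* (adjusted p = 9.1e-05), 1.00 in *YER085C* (adjusted p = 0.0040) and 0.54 in 1 probe set of *RPS10B* (adjusted p = 0.020). *YBR090C* in *swr1Δ* and *YER085C* in *swc2Δ* lay near the 3.74 of other-species probe sets, so the sizes of their differences are uncertain. *YER085C* did not pass after quantile normalization (0.72, adjusted p = 0.16) or median centring (0.61, adjusted p = 0.054) of the 24 arrays. *RPS10B* did not pass without 1 of 6 arrays (0.51 to 0.55, adjusted p = 0.053 to 0.11). *YBR090C* passed in all of these settings.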

How the results depend on the processing

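Counts of genes higher and lower kept within 1.5 times under most settings. Exceptions were 505 higher with p adjusted over all probe sets of the array. Over 2-fold, 11 genes were higher after quantile normalization, and 11 higher and 31 lower with the signal trend removed, a setting chosen after seeing the data. Without the dimmest 25%, 5 were higher and 6 lower over 2-fold, and 49 members of the described lists were higher (84 on all genes). Leaving out 1 array gave 480 to 724 higher and 314 to 456 lower, 14 to 25 and 12 to 33 over 2-fold, and 48 to 74 and 23 to 39 list members. It gave 401 to 661 higher and 351 to 604 lower for *swc2Δ* against *swr1Δ*, and 2 to 7 genes whose contrasts differ. Median centring of the 24 arrays gave 105 such genes. The cause of these shifts was not tested.

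Among the named genes no called one changed direction. Values that did, beyond the spread between replicates for medians, were *YBR090C* (-0.10 after quantile normalization, -0.062 with the signal trend removed), *YER085C* (-0.005 after quantile normalization), *INO1* without 1 array (-1.61 to 0.0557), and the medians of the PAU list without dim genes (-0.0258), of respiratory genes (-0.0452 to 0.0243) and of mitochondrial ribosomal genes (-0.01 to 0.163) without 1 array. Within that spread, the median of general stress genes also turned (-0.108 to 0.131 without 1 array, -0.0095 after quantile normalization).

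Over all genes, deviations of same-numbered arrays of the 2 double mutants correlated little, at -0.12, 0.07 and 0.01. Single genes could still share an order. *RRT5* was highest in replicate 1 and lowest in replicate 2 in wild type, *htz1Δ swr1Δ* and *htz1Δ swc2Δ*. It was not so ordered in *htz1Δ* or *htz1Δ swc5Δ*. With the replicate block 845 genes were higher and 538 lower, and 7 genes had contrasts that differ.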
